A study of Homo sapiens with 4 samples.

Results

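The genes described here are AHR, its repressor AHRR, the partner proteins ARNT and ARNT2, the clock factors ARNTL and ARNTL2, and the clock-related repressors BHLHE40 and BHLHE41. They were taken by name, and all 8 were present among the 2864 genes with values in the table used here. RNA was sequenced from 4 libraries of A375, a human melanoma cell line, all labelled with the genotype Wild Type and the same batch. Untreated parental cells (A375P) and the resistant strain A375R, derived from the same line under stepwise increasing vemurafenib and labelled as continuously treated, formed the first pair. A375 cells with the solvent (A375+DMSO) or with 2 μM vemurafenib (A375+VEM), each for 48 h, formed the second pair. Vemurafenib inhibits mutant BRAF kinase, and the study addresses melanoma with mutated BRAF. The label Wild Type should therefore not be read as the BRAF status of the cells. There was 1 library per condition, and neither the labels nor the methods say whether A375R is a single clone.

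AHR is a ligand-activated transcription factor that waits in the cytoplasm in a chaperone complex, moves to the nucleus when it binds small molecules, and acts on DNA as a dimer with ARNT. AHRR is induced by AHR and competes with it for ARNT, while ARNT also pairs with the HIF alpha subunits that respond to low oxygen. ARNTL, now named BMAL1, pairs with CLOCK to drive the circadian clock, ARNTL2 (BMAL2) is its paralog, and BHLHE40 and BHLHE41 (DEC1 and DEC2) bind E-boxes and repress clock genes. In melanoma cells BHLHE40 is also known as a hypoxia-inducible repressor of MITF, and vemurafenib is known to interact with AHR.

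The sequences just upstream of the start sites are shown for AHR and AHRR, both highest in A375+VEM, and for BHLHE40 and BHLHE41, both highest in A375P. They are the 250 bases before the RefSeq start on GRCh38.p14, written 5′ to 3′ along the gene, and capitals mark matches on either strand to the E-box CACGTG, to ACGTG, the core bound by HIF with ARNT, and to GCGTG, the core bound by AHR with ARNT. Each CACGTG also holds an ACGTG on both strands. The window of AHR is chr7:17298402-17298651 on the plus strand, that of AHRR chr5:321464-321713 on the plus strand, that of BHLHE40 chr3:4979187-4979436 on the plus strand and that of BHLHE41 chr12:26125038-26125287 on the minus strand.
AHR: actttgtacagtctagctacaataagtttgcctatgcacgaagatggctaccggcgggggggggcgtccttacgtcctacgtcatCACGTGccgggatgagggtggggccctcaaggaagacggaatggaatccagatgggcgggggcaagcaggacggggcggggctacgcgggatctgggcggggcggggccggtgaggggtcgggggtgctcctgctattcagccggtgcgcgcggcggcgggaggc
AHRR: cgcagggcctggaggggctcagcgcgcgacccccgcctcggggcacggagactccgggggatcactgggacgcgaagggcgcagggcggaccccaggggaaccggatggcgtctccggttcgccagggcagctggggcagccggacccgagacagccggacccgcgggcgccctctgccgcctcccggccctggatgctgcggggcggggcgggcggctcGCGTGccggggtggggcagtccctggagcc
BHLHE40: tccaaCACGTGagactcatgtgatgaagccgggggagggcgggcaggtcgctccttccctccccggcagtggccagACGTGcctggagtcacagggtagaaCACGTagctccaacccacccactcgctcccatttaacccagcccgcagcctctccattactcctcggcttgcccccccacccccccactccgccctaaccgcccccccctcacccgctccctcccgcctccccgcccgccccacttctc
BHLHE41: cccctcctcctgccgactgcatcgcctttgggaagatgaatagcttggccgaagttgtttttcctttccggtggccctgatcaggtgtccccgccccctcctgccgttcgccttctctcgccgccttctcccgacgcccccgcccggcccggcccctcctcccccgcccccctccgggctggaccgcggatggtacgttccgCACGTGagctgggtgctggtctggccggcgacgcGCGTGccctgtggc

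The windows of AHR, BHLHE40 and BHLHE41 each held 1 CACGTG, beginning at -165, -245 and -48 from the start site, where -1 is the last base before it. Of 34796 distinct RefSeq windows of this length, 6.31% held CACGTG. BHLHE40 held 2 further ACGTG matches outside its E-box, at -174 and -149, and 18.5% of all windows held at least 1 ACGTG. The AHR core GCGTG stood at -30 in the window of AHRR and at -14 in that of BHLHE41, and 32.2% of all windows held it. A second RefSeq start of AHRR had 2 GCGTG matches in its window, whereas the windows of ARNT, ARNTL and ARNTL2 held none of the 3 motifs. These matches describe the letters only and are not evidence of binding.

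In the authors' table, whose build is hg19 according to the submitters' processing notes, AHR spans 17338276 to 17385775 of chromosome 7 and AHRR spans 304291 to 438406 of chromosome 5, both with plus orientation. ARNT spans 150782181 to 150849244 of chromosome 1 (minus strand) and ARNT2 spans 80696692 to 80890278 of chromosome 15 (plus strand). ARNTL spans 13299274 to 13408813 on chromosome 11, and ARNTL2 spans 27485787 to 27578746 on chromosome 12, both on the plus strand. BHLHE40 spans 5021097 to 5026866 on the plus strand of chromosome 3, and BHLHE41 spans 26272959 to 26278003 on the minus strand of chromosome 12. All 8 are protein-coding. Positions were not converted between hg19 and GRCh38. The hg19 span of AHRR begins at 304291, whereas its window above ends at 321713 on GRCh38. Whether that window lies just before the start of the counted gene was therefore not tested.

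Levels are given as TPM, which the authors obtained by dividing read counts by gene length and setting the sum of each library to the same total. The genes in the table used here carried 8.48% to 8.94% of the TPM of a library and between 1891215 and 2054277 reads, a fraction of the library that says nothing of total depth. Every one of the 8 genes had a TPM of at least 1 in every library, with reads from 57 for BHLHE41 in A375+VEM to 5011 for AHR in the same library. A gene was called higher or lower when the ratio of (TPM + 0.1) between 2 libraries was past 1.5-fold. Folds in the text are ratios of TPM, log2 ratios are on (TPM + 0.1), and the 95% confidence intervals (95% CI) were computed from the read pairs by the exact Clopper-Pearson method. They cover counting error only and compare libraries, and none of the differences could be checked in replicates. Of 7 pigment cell markers, 6 reached a TPM of 1 in at least 1 library and ABCB5 did not, while all 5 leukocyte markers stayed below a TPM of 1, with a summed TPM of 0.260 to 1.33. The summed TPM of the pigment cell markers was 93.4 (A375P), 112 (A375R), 65.6 (A375+DMSO) and 96.5 (A375+VEM), and its part in the differences below was not tested. Of the 6 compared, 2 were higher and 2 lower in A375R against A375P, with APOE at a log2 ratio of 0.91, BCL2A1 at 2.28, ASAH1 at -1.02 and CA14 at -1.60. In A375+VEM against A375+DMSO, 4 were higher and 1 lower, with APOE at 0.61, BCL2A1 at 0.92, ASAH1 at 1.02, CA14 at 1.45 and BEST1 at -0.62. In A375+DMSO against A375P, 2 were higher and 3 lower, with BCAN, within 1.5-fold in the vemurafenib pairs, at -1.14. These are 66.7%, 83.3% and 83.3% of the 6, beside 44.3%, 46.2% and 45.7% of all genes.

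Over all genes, A375R was nearer to A375+DMSO than A375P was to either. The share past 1.5-fold was 20.5% for A375R against A375+DMSO, beside 44.3% for A375R against A375P and 45.7% for A375+DMSO against A375P. With 1 library per condition, a difference between the conditions, between the cultures and an error in the labels cannot be told apart, and this bears on every value set against A375P.

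The genes past the threshold differed from contrast to contrast. Between A375R and A375P, ARNTL2 was higher and ARNT2, BHLHE40 and BHLHE41 were lower. Between A375+VEM and A375+DMSO, AHR and AHRR were higher and ARNT2 and BHLHE41 were lower. A375+DMSO and A375P, both without vemurafenib, differed in ARNT2, ARNTL, BHLHE40 and BHLHE41, all lower in A375+DMSO. So 4 of 8 were called in each contrast, beside 44.3% of 1689 genes tested for A375R against A375P, 46.2% of 1784 for A375+VEM against A375+DMSO and 45.7% of 1720 for A375+DMSO against A375P. These shares are close to the background, so the count of called genes is not a result about the 8 genes. By direction, 1 was higher (26.8% of all genes) and 3 lower (17.5%) in A375R against A375P, 2 were higher (26.5%) and 2 lower (19.7%) in A375+VEM against A375+DMSO, and 0 were higher (26.8%) and 4 lower (18.9%) in A375+DMSO against A375P. The first and last of these contrasts share A375P, and the last 2 share A375+DMSO. The median log2 ratio over all genes tested was 0.10, 0.11 and 0.09 in these contrasts, and over the 8 genes -0.06, 0.13 and -0.70. In bulk RNA, fewer cells that express a gene and less of its RNA per cell cannot be told apart.

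**Figure D1:**
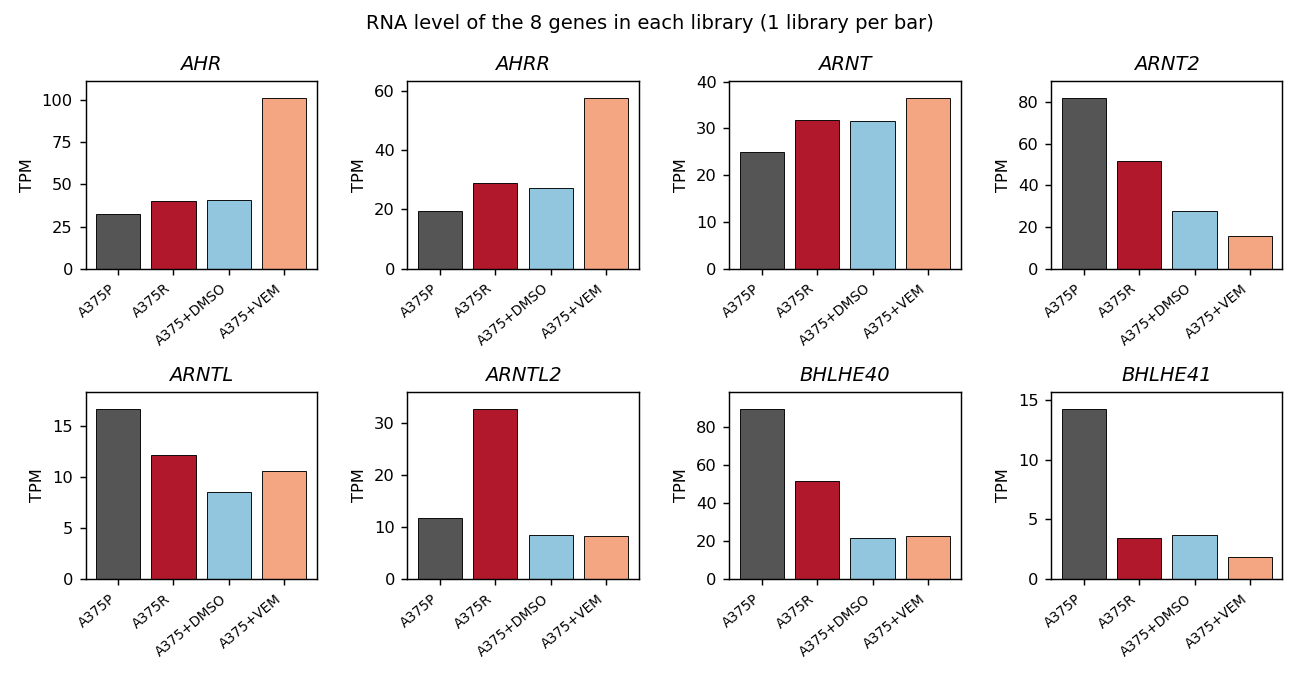
Level of each gene in TPM (vertical axes, each from 0 with its own scale) in A375P, A375R, A375+DMSO and A375+VEM, 1 library per bar and no error bars. AHR and AHRR are highest in A375+VEM, ARNTL2 in A375R, and ARNT2, ARNTL, BHLHE40 and BHLHE41 in A375P.

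**Figure D2:**
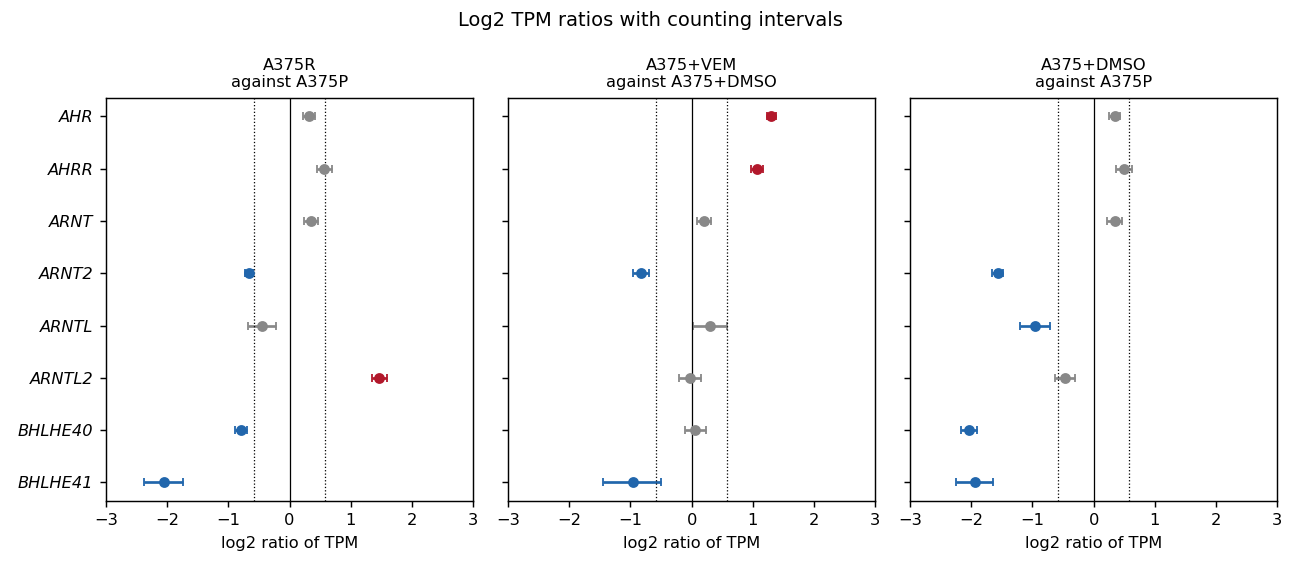
Log2 ratio of TPM (horizontal axis) of the 8 genes in 3 contrasts, with 95% counting intervals as bars. Dotted lines mark 1.5-fold, red points were called higher, blue points lower and grey points neither. AHR and AHRR are red in the acute pair, ARNTL2 in A375R against A375P, and the blue points of ARNT2 and BHLHE41 recur in all 3 panels.

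The receptor itself was most abundant under acute vemurafenib. AHR had TPM values 32.3 (A375P), 40.3 (A375R), 41.0 (A375+DMSO) and 101 (A375+VEM). The acutely treated library stood apart, while A375R and A375+DMSO did not differ beyond counting error, with a ratio of A375+DMSO to A375R of 1.02 (95% CI 0.954 to 1.08). From A375+DMSO to A375+VEM, AHR was 2.47-fold higher (95% CI 2.34 to 2.60), more than 90.4% of the genes tested in that pair on the log2 scale. From A375P to A375R it was 1.25-fold higher (95% CI 1.17 to 1.33), which did not pass 1.5-fold.

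AHRR, the repressor, was likewise lowest in A375P and highest in A375+VEM, and A375R and A375+DMSO again did not differ beyond counting error. Its TPM was 19.4 (A375P), 28.7 (A375R), 27.3 (A375+DMSO) and 57.5 (A375+VEM). Acute vemurafenib went with 2.10-fold more AHRR than the solvent (95% CI 1.96 to 2.25). In A375R it was 1.48-fold higher than in A375P (95% CI 1.36 to 1.61), just under the threshold. In GENCODE the gene PDCD6 overlaps AHRR on the same strand, as AC019117.2 does AHR. Neither was analysed here, and how shared reads were assigned is not given in the sources used here.

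The level of AHRR per AHR varied less than the level of either gene. AHRR over AHR, a ratio of TPM within a library, was 0.601 (A375P), 0.712 (A375R), 0.668 (A375+DMSO) and 0.569 (A375+VEM). The lowest of these had a 95% CI of 0.542 to 0.597 and the highest one of 0.662 to 0.764. That of A375+DMSO had one of 0.622 to 0.717. AHRR per AHR was thus lower in A375+VEM than in A375R and A375+DMSO by more than counting error. Over the centred log2(TPM + 0.1) of the 4 libraries, AHRR was the 8th nearest of 1699 genes to AHR, at a Euclidean distance of 0.25. The nearest to AHR were ARL6IP5 at 0.08, ARL4AP4 at 0.15 and C9orf16 at 0.21, and the nearest to AHRR were ADAM10 at 0.09, C5orf24 at 0.09 and C9orf16 at 0.11. These are likenesses over 4 libraries only.

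The shared partner ARNT was the steadiest of the 8 genes. Its TPM was 24.9 (A375P), 31.8 (A375R), 31.6 (A375+DMSO) and 36.5 (A375+VEM), a 1.46-fold span from lowest to highest. ARNT was not called in any contrast of the pairs, at 1.27-fold in A375R against A375P (95% CI 1.17 to 1.38) and 1.15-fold in A375+VEM against A375+DMSO (95% CI 1.07 to 1.24). Its levels in A375R and A375+DMSO did not differ beyond counting error, with a ratio of 1.00 (95% CI 0.926 to 1.09). AGGF1, C5orf42 and ACTR2 had the most similar patterns, at distances of 0.08, 0.09 and 0.09.

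AHR per ARNT was the same within counting error in 3 libraries and higher in the acutely treated library. From A375P to A375R the 2 genes differed alike, AHR by 1.25-fold and ARNT by 1.27-fold. AHR over ARNT was 1.30 in A375P, 1.27 in A375R and 1.29 in A375+DMSO, with 95% CIs that all lay between 1.18 and 1.40. In A375+VEM it was 2.77 (95% CI 2.61 to 2.94). For this ratio A375R lay with the libraries without vemurafenib and apart from A375+VEM.

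ARNT2, a paralog of ARNT that can also pair with bHLH-PAS proteins and is best known from the nervous system, took a separate value in every library. Its TPM was 82.0 (A375P), 51.8 (A375R), 27.6 (A375+DMSO) and 15.6 (A375+VEM). Each step in this order exceeded counting error, at 1.58-fold from A375R to A375P, 1.87-fold from A375+DMSO to A375R and 1.77-fold from A375+VEM to A375+DMSO. ARNT2 was lower within both pairs, with a ratio of 0.632 (95% CI 0.602 to 0.663) in the resistant pair and 0.564 (95% CI 0.517 to 0.615) in the acute pair. The direction in A375R depends on the control, since against A375+DMSO ARNT2 was higher, at a log2 ratio of 0.90. In GENCODE the antisense genes AC016705.1, AC108451.1 and AC108451.2 overlap ARNT2 on the other strand, and they were not analysed here.

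The balance of the ARNT paralogs was reversed between the libraries. ARNT2 over ARNT was 3.29 in A375P (95% CI 3.08 to 3.52) and 1.63 in A375R (95% CI 1.52 to 1.75), so ARNT2 was the more abundant paralog in both. In A375+DMSO it was 0.874 (95% CI 0.809 to 0.943), and in A375+VEM it was 0.427 (95% CI 0.392 to 0.466), where ARNT was the more abundant. These ratios divide reads by gene length, 6559 bases for ARNT2 and 4943 for ARNT, and the intervals do not cover an error in length. In A375+DMSO ARNT2 had more reads than ARNT, 1450 against 1251, so the order there rests on the lengths. In A375+VEM ARNT also had more reads, 1432 against 812. The summed TPM of ARNT and ARNT2 was 107 (A375P), 83.5 (A375R), 59.3 (A375+DMSO) and 52.1 (A375+VEM). BCAR3, C10orf35 and ABCE1 were the genes most like ARNT2, at distances of 0.35, 0.36 and 0.44, and BHLHE40 was the 17th nearest at 0.63.

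**Figure D3:**
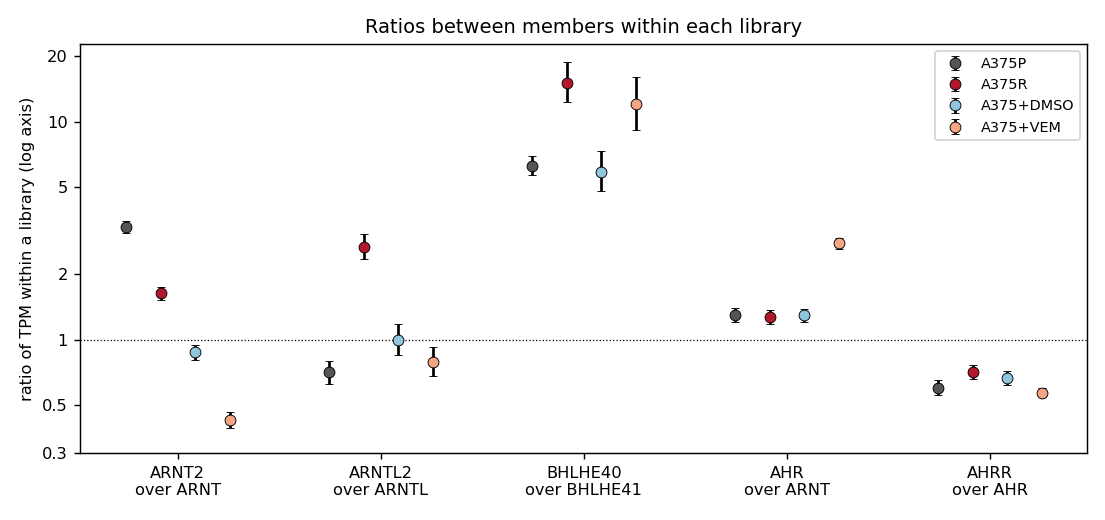
Ratio of TPM between genes of the family within each library (vertical log axis), with 95% counting intervals as bars and the dotted line at equal levels. ARNT2 over ARNT runs from 3.29 in A375P to 0.427 in A375+VEM, ARNTL2 over ARNTL is above 1 in A375R, and AHR over ARNT stands apart in A375+VEM.

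The clock factor ARNTL was the least variable of the circadian genes. It had TPM values 16.7 (A375P), 12.2 (A375R), 8.61 (A375+DMSO) and 10.6 (A375+VEM), with 201 to 418 reads. A375P was highest, and A375R and A375+VEM did not differ beyond counting error, with a ratio of 1.15 (95% CI 0.966 to 1.37). ARNTL was not called in either vemurafenib pair, with a ratio of 0.731 in A375R against A375P (95% CI 0.626 to 0.853) and of 1.23 in A375+VEM against A375+DMSO (95% CI 1.02 to 1.49). It was called lower in A375+DMSO than in A375P, at a ratio of 0.515 (95% CI 0.433 to 0.611). ASXL2, C1orf52 and ARF1 were nearest in pattern, at 0.14, 0.17 and 0.19.

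Its paralog ARNTL2 was high in the resistant strain. ARNTL2 had TPM values 11.8 (A375P), 32.7 (A375R), 8.58 (A375+DMSO) and 8.41 (A375+VEM). A375R stood above the other 3 libraries, and the acute pair did not differ beyond counting error, with a ratio of 0.979 (95% CI 0.864 to 1.11). Relative to A375P, ARNTL2 was 2.76-fold higher in A375R (95% CI 2.53 to 3.01), and relative to A375+DMSO it was 3.80-fold higher (95% CI 3.45 to 4.20). It was the only one of the 8 genes called higher in A375R against both libraries without vemurafenib. On the log2 scale, 92.9% of the genes tested were below it against A375P and 99.0% against A375+DMSO.

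By TPM, which divides reads by gene length, ARNTL2 exceeded ARNTL only in A375R. The ratio of ARNTL2 to ARNTL was 2.68 in A375R (95% CI 2.36 to 3.05), against 0.709 in A375P (95% CI 0.628 to 0.801), 0.998 in A375+DMSO (95% CI 0.846 to 1.18) and 0.793 in A375+VEM (95% CI 0.679 to 0.927). The antisense gene ARNTL2-AS1 overlaps it on the other strand and had 0 (A375P), 2 (A375R), 5 (A375+DMSO) and 2 (A375+VEM) reads. ADAMTS6, C15orf48 and C15orf39 had the most similar patterns, each also highest in A375R, at distances of 0.56, 0.57 and 0.58.

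The repressor BHLHE40 was high in A375P and A375R and low in both libraries of the acute pair. It had TPM values 89.8 (A375P), 51.9 (A375R), 21.9 (A375+DMSO) and 22.9 (A375+VEM). The acute pair did not differ beyond counting error, at a ratio of A375+VEM to A375+DMSO of 1.04 (95% CI 0.926 to 1.18). A375R lay between, at a ratio to A375P of 0.578 (95% CI 0.539 to 0.620) and 2.37-fold above A375+DMSO (95% CI 2.14 to 2.63). Thus BHLHE40 was lower in A375R against A375P, at a log2 ratio of -0.79, and higher against A375+DMSO, at 1.24. BHLHE40-AS1, which overlaps it on the other strand, had 2 to 9 reads. ABHD5, ABRACL and AGPAT5 were nearest in pattern, at 0.32, 0.40 and 0.46, and ARNT2 was the 12th nearest.

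BHLHE41 was the least abundant of the 8 genes in A375R, A375+DMSO and A375+VEM. Its TPM was 14.2 (A375P), 3.42 (A375R), 3.71 (A375+DMSO) and 1.90 (A375+VEM), from 461, 100, 112 and 57 reads. A375P stood above the others, and A375R and A375+DMSO did not differ beyond counting error, with a ratio of A375R to A375+DMSO of 0.922 (95% CI 0.697 to 1.22). BHLHE41 was lower in A375R than in A375P, at a ratio of 0.240 (95% CI 0.191 to 0.299), and in A375+VEM than in A375+DMSO, at 0.513 (95% CI 0.366 to 0.711). Only 1.30% of the genes tested had a lower log2 ratio in A375R against A375P. The gene SSPN overlaps BHLHE41 on the other strand in GENCODE and was not analysed here.

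Within each library BHLHE40 was the more abundant of the pair, to different degrees. BHLHE40 over BHLHE41 was 6.31 in A375P (95% CI 5.71 to 6.99) and 5.92 in A375+DMSO (95% CI 4.82 to 7.32), which did not differ beyond counting error. It was 15.2 in A375R (95% CI 12.4 to 18.8) and 12.1 in A375+VEM (95% CI 9.17 to 16.1). Both libraries with vemurafenib thus lay above both without it, with intervals that did not overlap. The genes behind this differed, and each value is from a single library. In the acute pair BHLHE41 was at a ratio of 0.513 and BHLHE40 at 1.04. In A375R against A375+DMSO, BHLHE40 was at 2.37 and BHLHE41 at 0.922. In A375R against A375P both were lower, BHLHE40 at 0.578 and BHLHE41 at 0.240. C1orf109, ATAD3B and BSN-AS2 were nearest to BHLHE41 in pattern, at 0.52, 0.67 and 0.68.

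The difference between the libraries without vemurafenib was as large as those of the pairs for several genes. In A375+DMSO against A375P, BHLHE40 had a ratio of 0.244 (95% CI 0.222 to 0.268), BHLHE41 one of 0.260 (95% CI 0.210 to 0.321) and ARNT2 one of 0.337 (95% CI 0.318 to 0.358). AHR was 1.27-fold higher in A375+DMSO (95% CI 1.19 to 1.35) and AHRR 1.41-fold (95% CI 1.29 to 1.54), neither of them called. With A375+DMSO as the control, 3 of 8 genes were higher in A375R and none lower, ARNT2, ARNTL2 and BHLHE40, which is 37.5% of the 8, beside 20.5% of 1702 genes called in either direction (10.5% higher and 9.99% lower). With A375P as the control, AHR at 3.13-fold and AHRR at 2.96-fold were higher in A375+VEM, and ARNT2, ARNTL, BHLHE40 and BHLHE41 were lower, 75% of the 8 beside 62.1% of 1782 genes (36.9% higher and 25.3% lower). AHR and AHRR were thus called higher in A375+VEM against either control, and ARNT2 and BHLHE41 lower against either. The solvent and the culture cannot be told apart in A375+DMSO.

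A375+VEM and A375R, both exposed to vemurafenib but for different times, also differed. AHR was 2.50-fold (95% CI 2.38 to 2.64) and AHRR 2.00-fold (95% CI 1.87 to 2.14) higher in A375+VEM than in A375R. ARNTL2 was lower in A375+VEM at a ratio of 0.257 (95% CI 0.233 to 0.284), ARNT2 at 0.301, BHLHE40 at 0.441 and BHLHE41 at 0.556. These 6 of 8 called genes (75%) stood beside 54.7% of 1773 genes tested, 30.8% higher and 23.9% lower.

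A375R and A375+VEM were also combined against A375P and A375+DMSO, although the libraries of an arm are different conditions and not replicates. In the quasi-likelihood test of edgeR, 0 of 1700 genes had an adjusted p under 0.05 (percent called 0), and 12 (0.706%) had an unadjusted p under 0.05, none of them among the 8. DESeq2 gave 0 genes at an adjusted p under 0.05 and 36 at an unadjusted one, of which BHLHE41 was 1. The log2 fold change was 0.84 (standard error 0.50) for AHR, 0.78 (standard error 0.45) for AHRR, 0.94 (standard error 0.72) for ARNTL2 and -1.86 (standard error 0.88) for BHLHE41, each with an adjusted p of 1.00 from edgeR. A common effect of both exposures was therefore not detectable for any of the 8 genes.

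Of 4 genes linked to the AHR complex or to AHR responses, 3 were compared in each pair, with 1 higher in A375R (26.8% of all genes) and 2 lower in A375+VEM (19.7% of all genes), counts too small to set against those shares. Their median log2 ratio, that of ABCG2 in both pairs, was 0.54 in A375R against A375P and -2.40 in A375+VEM against A375+DMSO. In the acute pair, AREG and ABCG2 reached a TPM of 1 only in A375+DMSO, so the medians were not set against all genes. The HSP90 co-chaperone AHSA1 ranged from 109 to 152 TPM and was not called in either pair. AREG, an EGFR ligand reported to respond to AHR, had 81 (A375P), 238 (A375R), 85 (A375+DMSO) and 1 (A375+VEM) reads. The transporter ABCG2 had 42, 57, 48 and 6 reads in the same order, a ratio of 0.126 in the acute pair (95% CI 0.044 to 0.295). ALDH3A1, a classical AHR-responsive enzyme, had 0 to 2 reads. In the acutely treated library, where AHR and AHRR were highest, AREG and ABCG2 were lowest, with 1 and 6 reads. Whether their levels depend on AHR was not tested.

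Of 6 clock-linked genes, 2 were expressed at a TPM of at least 1, and ALAS1 was called in both pairs, beside 44.3% and 46.2% of all genes. ALAS1, the first enzyme of heme synthesis, had a 1.78-fold higher level in A375R against A375P (95% CI 1.68 to 1.90) and a lower one in the acute library against the solvent, at a ratio of 0.591 (95% CI 0.547 to 0.639). BTRC, a ubiquitin ligase subunit that targets PER proteins, had TPM values 20.2 (A375P), 16.0 (A375R), 13.7 (A375+DMSO) and 15.1 (A375+VEM) and was not called in either pair. AVP, AANAT, ASMT and ADCYAP1, which belong to hormone signaling and melatonin synthesis, stayed below a TPM of 1 in every library.

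Of 11 hypoxia-inducible genes, whose HIF activators pair with ARNT, 3 were higher and 3 lower of 9 compared in A375R against A375P, or 66.7% called beside 44.3% of all genes. In A375+VEM against A375+DMSO, 2 were higher and 3 lower of 10, or 50% beside 46.2%. In A375+DMSO against A375P, 4 were higher and 2 lower of 10, or 60% beside 45.7%. Of all genes in that contrast, 26.8% were higher and 18.9% lower. CA9 passed the filter there only through A375+DMSO, which favoured an upward call. ADM, a secreted peptide, had TPM values 88.7 (A375P), 18.2 (A375R), 21.7 (A375+DMSO) and 5.07 (A375+VEM), highest in A375P like BHLHE40. CA9, a carbonic anhydrase, had 1, 0, 289 and 95 reads in the same order and ALDOC, a glycolytic enzyme, 82, 484, 1598 and 1444, both lower in A375P and A375R than in the acute pair. ANGPTL4, a secreted regulator of lipoprotein lipase, was called higher in all 3 contrasts, at log2 ratios of 1.06, 2.14 and 0.84 in the order just given. AK4, an adenylate kinase, was lower in both vemurafenib pairs, at -0.70 and -1.14. BNIP3L, a mitophagy receptor, was higher in A375R and in A375+DMSO against A375P, at 0.62 and 0.64. ADORA2B, ALDOA and BNIP3 were not called in any of the 3 contrasts, and CA12 stayed below a TPM of 1. The part of hypoxia signaling in the levels of ARNT2, BHLHE40 and BHLHE41 was not tested.

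Among 12 other bHLH genes in the table, ASCL5, ATOH8 and BHLHA15 alone reached a TPM of 1. All 3 passed 1.5-fold upward in the acute pair, beside 26.5% of all genes, with intervals that included equal levels for ASCL5 and BHLHA15. BHLHA15 had 1 read in A375+DMSO and 6 in A375+VEM. It passed the filter only through A375+VEM, which favoured an upward call. With a pseudocount of 1, 2 of these 3 were called, so the count is not a result about these genes. ATOH8, a bHLH factor of the atonal family, had 13 (A375P), 9 (A375R), 284 (A375+DMSO) and 898 (A375+VEM) reads. Within the acute pair ATOH8 was 3.18-fold higher with vemurafenib (95% CI 2.78 to 3.65) and 23.4-fold higher in A375+DMSO than in A375P (95% CI 13.5 to 44.5). ASCL5 had 6, 5, 19 and 29 reads in the same order, and its ratio in the acute pair was 1.54 (95% CI 0.833 to 2.90). That passes 1.5-fold, but no difference was detectable at this depth.

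**Figure D4:**
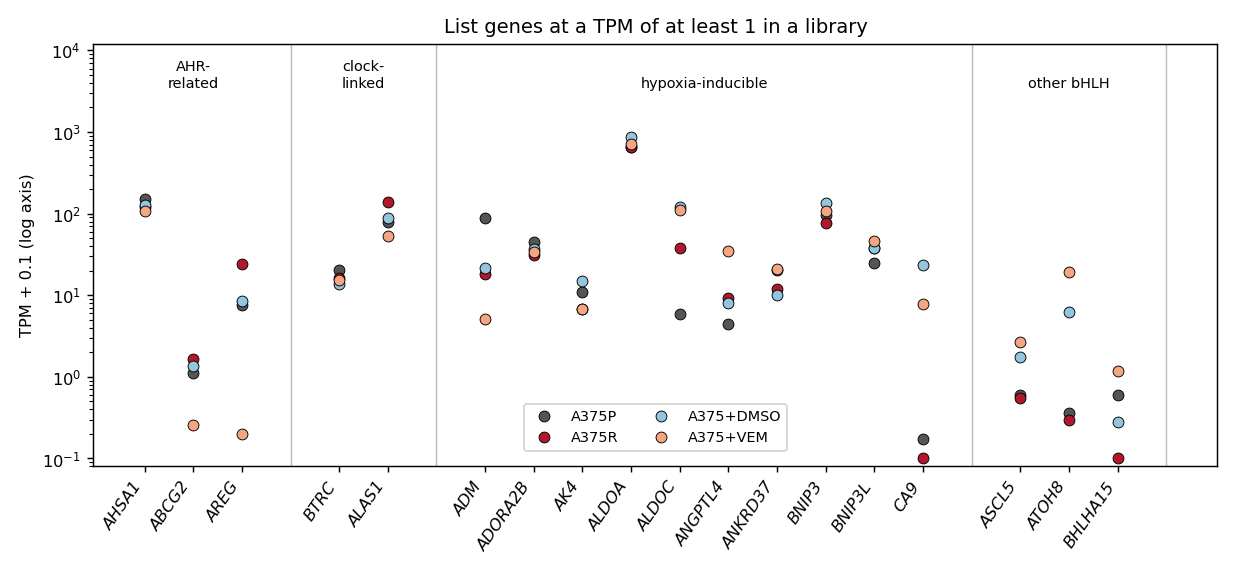
Level of genes related to the family (TPM + 0.1, vertical log axis) in the 4 libraries, 1 point per library, for list genes that reached a TPM of 1 in a library. AREG and ABCG2 are lowest in A375+VEM, ADM is highest in A375P, and ATOH8 is highest in A375+VEM.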

How the data were processed

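The 4 A375 libraries, 1 per condition, were grouped by their labels. The authors deposited whole-number counts per gene without normalization, and the TPM, which the authors computed as count over gene length scaled per library. The submitters' processing notes name HISAT2, TopHat2, Bowtie2, HISAT and hg19. The counting program and its strand setting are not given in the sources used here. Only genes early in the alphabet were analysed here (2864 with values), and 1 incomplete row was left out.

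Ratios of (TPM + 0.1) were formed where either library had TPM 1 or more and called past 1.5-fold. Intervals (95%) were exact Clopper-Pearson intervals on reads, rescaled by the TPM totals, and cover counting error only. edgeR's quasi-likelihood test used TMM and Benjamini-Hochberg adjustment on genes whose mean TPM reached 1. The steps were run on simulated data in which the libraries of an arm shared the same true levels. That checks the computation only, since the libraries of an arm here are different conditions. The genes, lists and tests were chosen with earlier results of these data known. Genes open to naming were the 8 genes, the cell markers, every list gene with values except 1 that is not reported here and was left out of its list, and the 3 genes nearest to each of the 8 by Euclidean distance. Promoters are from RefSeq (GRCh38.p14), matched by NCBI gene ID for 7 of 8 genes, without ARNT2. Alternatives were pseudocounts, filters, scaling, a 2-fold threshold, the other control, another normalization, DESeq2, the pair as a block and leaving out each library. Python 3.11.15, scipy 1.17.1, R 4.3.3, edgeR 4.0.16 and DESeq2 1.42.0 were used.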

Additional observations from a re-analysis of the deposited data

Results flagged for a closer look

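Of the 8 genes, the related lists and the pigment cell markers, 8 genes had log2 ratios of opposite sign in the resistant and the acute pair, with counting intervals that excluded equal levels in both. With 1 library per condition, this contrast between pairs was not tested. The share of all genes with such opposite signs was not computed, so the count is not a result about these genes. Giving the resistant pair (A375R against A375P) before the acute pair, the values of ARNTL were -0.45 and 0.30, neither past 1.5-fold. For AREG they were 1.69 and -5.41, where A375+VEM held 1 read. ALAS1 was at 0.83 and -0.76, ALDOC at 2.69 and -0.14, and ANKRD37 at -0.76 and 1.07. Of the pigment cell markers, ASAH1 was at -1.02 and 1.02, BEST1 at 0.54 and -0.62, and CA14 at -1.60 and 1.45. Against A375+DMSO, ARNTL was at 0.50 in A375R, so its sign there depends on the control.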

How the results depend on the processing

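With A375+DMSO as the control of A375R, the 8 genes had 3 called higher in place of 1 and 0 called lower in place of 3, and ARNT2 and BHLHE40 changed direction, to log2 ratios of 0.90 and 1.24. With A375P as the control of A375+VEM, 4 were lower in place of 2. At a threshold of 2-fold, stricter by construction, 1 gene was lower in A375R and 0 in A375+VEM, and at a TPM of at least 5, which removes BHLHE41 from the acute pair, 1 was lower in A375+VEM. The pseudocounts, no filter, and scaling to a median ratio of 1 left the number of the 8 genes called within 1.5 times in all 3 contrasts. After that scaling AHR was at 1.20 and AHRR at 0.96 in the acute pair. Ratios of genes within a library do not depend on these settings, but they rest on the gene lengths used for TPM.

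In the comparison of A375R and A375+VEM together against both others, none of the 8 genes passed an adjusted p of 0.05 in any alternative. Leaving out each library in turn, the log2 fold change ranged from 0.10 (without A375+VEM) to 1.35 for AHR, from 0.26 (without A375+VEM) to 1.19 for AHRR, from -1.93 to 0.25 for ARNT2, from -0.62 to 0.35 for ARNTL, from -0.39 to 1.62 for ARNTL2, from -1.40 to 0.73 for BHLHE40, from -2.48 to -0.52 (without A375P) for BHLHE41 and from 0.05 (without A375P) to 0.38 for ARNT. The sign changed without A375P for ARNT2, ARNTL and BHLHE40 and without A375R for ARNTL2. A lone library in an arm was assumed to vary like the others. With the pair as a block, 59 genes had an unadjusted p under 0.05 in place of 12, and none an adjusted one. The labels give no replicate numbers, so the block rests on the study's pairs. Without A375R, 4 genes passed the adjusted threshold. The depth limits BHLHE41 most, with 57 reads in A375+VEM, and the causes of these shifts were not tested.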
